A study of Mus musculus with 20 samples.

Results

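Transcripts of 10 neutrophil granule genes were followed through dendritic cell development from mouse bone marrow. The genes were chosen by name, with earlier results of these data known. Mpo, Elane, Prtn3 and Ctsg encode proteins of the primary granules. Ltf, Ngp, Lcn2, Camp and Mmp8 encode proteins of granules that form later. Ms4a3, a membrane protein of granulocyte and monocyte precursors, was kept apart from both classes. Each gene had 1 probe set on the array, so the set comprised 10 of 45101 probe sets and 10 of 18194 genes that a probe set named alone.

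Total RNA of 20 samples from C57BL/6 bone marrow was hybridised to Affymetrix mouse arrays, in 10 groups of 2 arrays. Multipotent progenitors (MPP) and common dendritic cell progenitors (CDP) had been amplified in culture, and conventional (cDC) and plasmacytoid dendritic cells (pDC) had been differentiated from amplified progenitors. In vivo CDP were isolated from bone marrow and carry no label of amplification. The remaining groups were amplified CDP left untreated (0 h) or given TGF-β1 for 4, 8, 12 or 24 h. The sources used here do not give the dose of TGF-β1, the age of the mice, or how many mice and cultures were used, so p-values measure the spread between arrays, which may be technical. A one-cycle kit and 1 µg of RNA served for MPP, CDP, cDC and pDC. A 3′ IVT kit served for the TGF-β1 series with 250 ng and for In vivo CDP with 50 ng, and the latter RNA came from a different extraction kit than that of all other samples.

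Neutrophils store antimicrobial proteins in granules that are filled in sequence. The primary, or azurophil, granules are loaded in promyelocytes with myeloperoxidase and serine proteases, and the specific and gelatinase granules are loaded later, in myelocytes and metamyelocytes, with lactoferrin, lipocalin, cathelicidin and metalloproteinases. Primary granule transcripts are already found in bone marrow progenitors with granulocyte and monocyte potential, while dendritic cells are not known for neutrophil granules.

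Values are log2 intensities. The 10 arrays of MPP, CDP, cDC, pDC and In vivo CDP shared a lowest value of 2.25 and had medians of 2.46 to 2.52, with 34.0% to 35.2% of probe sets above 5. The 10 TGF-β1 arrays had medians of 5.29 to 5.36, with 54.4% to 56.0% above 5. Levels were therefore not compared between these 2 sets of arrays. On replicate 1 at 4, 12 and 24 h the 3′ Gapdh control exceeded the 5′ control by 2.1 to 2.78, against 0.01 to 0.10 on the other 7 TGF-β1 arrays. The log2 of the summed level of 4 cDC markers was 15.3 to 15.4 in cDC, 13.05 to 13.06 in pDC and 7.06 to 9.38 in CDP, although one of them, Itgax, was higher in pDC (11.17) than in cDC (10.48). That of 4 pDC markers was 15.58 to 15.97 in pDC, 11.1 to 12.1 in cDC and 8.66 to 9.84 in CDP. Of 4 progenitor markers (Kit, Cd34, Flt3 and Csf1r), 4 were above 5 in MPP, In vivo CDP and also cDC, 3 to 4 in CDP and 3 in pDC, and Kit was higher in cDC (11.10) than in MPP (9.71) or CDP (5.04).

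The promoters of the 4 primary granule genes are shown first, since their 250 bases upstream of the RefSeq start (GRCm38.p6) all held GAGGAA, the core bound by PU.1 and other ETS factors. All 10 genes matched the RefSeq table. Capitals mark that core, the MYB motif AACTG, the RUNX motif TGTGGT and the C/EBP motif TTNNGNAAT on either strand, a match on the other strand being printed as its reverse complement. No match overlapped another. Mpo lies at chr11:87793534-87793783 on the plus strand, Elane at chr10:79886062-79886311 on the plus strand, Prtn3 at chr10:79879417-79879666 on the plus strand, and Ctsg at chr14:56102575-56102824 on the minus strand. Prtn3 and Elane are neighbours, with 0 genes of the RefSeq table between them.
Mpo: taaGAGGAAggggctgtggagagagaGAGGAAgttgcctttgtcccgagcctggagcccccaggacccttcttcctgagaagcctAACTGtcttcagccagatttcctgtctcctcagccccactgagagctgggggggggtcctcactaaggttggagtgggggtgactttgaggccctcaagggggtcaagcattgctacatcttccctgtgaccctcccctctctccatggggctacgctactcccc
Elane: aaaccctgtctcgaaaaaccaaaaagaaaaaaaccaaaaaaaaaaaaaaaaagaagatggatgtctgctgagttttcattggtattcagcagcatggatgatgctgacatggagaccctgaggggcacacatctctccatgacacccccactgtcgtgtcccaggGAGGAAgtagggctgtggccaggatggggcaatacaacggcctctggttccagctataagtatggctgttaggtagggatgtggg
Prtn3: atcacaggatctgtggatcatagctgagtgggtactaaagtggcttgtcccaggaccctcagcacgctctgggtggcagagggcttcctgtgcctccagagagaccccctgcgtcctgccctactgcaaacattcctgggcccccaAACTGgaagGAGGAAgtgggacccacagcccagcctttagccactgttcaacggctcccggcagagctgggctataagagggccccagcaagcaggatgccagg
Ctsg: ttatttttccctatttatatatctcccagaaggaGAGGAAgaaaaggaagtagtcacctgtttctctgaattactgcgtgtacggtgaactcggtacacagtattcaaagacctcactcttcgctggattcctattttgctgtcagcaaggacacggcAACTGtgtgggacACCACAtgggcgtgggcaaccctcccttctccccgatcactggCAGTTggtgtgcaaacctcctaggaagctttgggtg

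Of the later granule genes, Ltf at chr9:111019042-111019291 and Ngp at chr9:110419558-110419807, both on the plus strand, are shown because they alone among the 10 promoters held the C/EBP motif.
Ltf: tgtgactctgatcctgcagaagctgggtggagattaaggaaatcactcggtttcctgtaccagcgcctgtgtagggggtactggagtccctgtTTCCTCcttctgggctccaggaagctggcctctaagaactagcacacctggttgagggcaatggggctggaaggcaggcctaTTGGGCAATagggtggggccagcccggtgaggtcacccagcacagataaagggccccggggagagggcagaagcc
Ngp: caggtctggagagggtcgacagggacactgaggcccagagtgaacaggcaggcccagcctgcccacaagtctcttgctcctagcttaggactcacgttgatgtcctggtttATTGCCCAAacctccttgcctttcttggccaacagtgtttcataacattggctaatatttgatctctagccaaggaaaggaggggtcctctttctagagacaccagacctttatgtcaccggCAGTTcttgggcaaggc
GAGGAA occurred in 4 of 4 primary and 3 of 5 later promoters (Ltf, Lcn2 and Mmp8), against 23.3% of 32851 promoter windows of the same length. AACTG occurred in 3 of 4 primary and 3 of 5 later promoters, against 39.1% of windows. TGTGGT was found in Ctsg alone, against 14.0% of windows, and TTNNGNAAT in 10.2% of windows. The Ms4a3 and Camp windows held none of the 4 motifs. A match describes letters in the window and says nothing of binding, which was not measured here.

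In MPP the primary granule genes stood far above their levels in dendritic cells, and in CDP they parted. Mpo, the peroxidase that makes hypochlorous acid, read 14.66 and 14.69 on the MPP arrays, 8.60 and 8.60 on CDP, 13.93 and 13.99 on In vivo CDP, 2.70 and 2.80 on cDC, and 2.55 and 2.80 on pDC. The 2 arrays of a group lay close together, and only cDC and pDC overlapped. Elane, neutrophil elastase, read 11.41 and 11.08 on the MPP arrays, 4.69 and 3.34 on CDP, 7.42 and 7.25 on In vivo CDP, 3.42 and 3.26 on cDC, and 3.34 and 3.34 on pDC. MPP were highest, In vivo CDP came next, and the other 3 groups were all under 5.

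Prtn3, proteinase 3, read 14.71 and 14.75 on the MPP arrays, 13.77 and 13.42 on CDP, 14.08 and 13.82 on In vivo CDP, 7.52 and 7.50 on cDC, and 7.70 and 7.37 on pDC. All 3 progenitor groups were high, and Prtn3 was the member whose level stayed above 5 on all dendritic cell arrays. Ctsg, cathepsin G, read 15.01 and 15.02 on the MPP arrays, 13.64 and 12.92 on CDP, 12.83 and 12.84 on In vivo CDP, 2.83 and 3.18 on cDC, and 2.83 and 2.53 on pDC. Its order was MPP, CDP, In vivo CDP and then both dendritic cell types, whose arrays overlapped, and CDP and In vivo CDP were not called different in the test given further on. Ms4a3 read 13.33 and 13.56 on the MPP arrays, 10.22 and 11.22 on CDP, 8.31 and 6.47 on In vivo CDP, 2.67 and 2.60 on cDC, and 2.67 and 2.60 on pDC. It followed the same order as Ctsg, with a wider spread within CDP and In vivo CDP.

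Among the later genes, 4 were higher on the MPP and In vivo CDP arrays than on the CDP arrays. For Ngp and Lcn2 the margin was narrow between CDP replicate 1 (8.06 and 6.23) and In vivo CDP replicate 2 (8.25 and 6.69). Of the probe sets tested further on, 45.7% had no overlap between CDP and MPP arrays, in either direction. Between In vivo CDP and CDP arrays it was 73.9%. Ltf, the iron-binding lactoferrin, read 8.64 and 7.18 on the MPP arrays, 4.28 and 2.90 on CDP, and 9.43 and 6.69 on In vivo CDP. Ngp, neutrophilic granule protein, read 12.60 and 11.76 on the MPP arrays, 8.06 and 5.72 on CDP, and 10.68 and 8.25 on In vivo CDP. For Ltf the MPP and In vivo CDP arrays overlapped, while for Ngp the order was MPP, In vivo CDP and CDP without overlap. Lcn2, a lipocalin that binds bacterial siderophores, read 9.86 and 8.39 on the MPP arrays, 6.23 and 3.63 on CDP, and 8.96 and 6.69 on In vivo CDP. Camp, the cathelicidin precursor, read 9.12 and 7.72 on the MPP arrays, 3.25 and 2.88 on CDP, and 9.77 and 6.98 on In vivo CDP. For both genes MPP and In vivo CDP overlapped and CDP lay below them. In cDC and pDC these 4 genes lay between 2.41 and 3.63, all under 5.

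Mmp8, the neutrophil collagenase, had a different order. It read 8.71 and 7.65 on CDP, 5.67 and 4.70 on In vivo CDP, 5.42 and 4.35 on MPP, 4.20 and 4.22 on cDC, and 2.25 and 2.27 on pDC. CDP were the highest group and overlapped no other, In vivo CDP and MPP overlapped, and pDC lay at or near the lowest value of the arrays.

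**Figure D1:**
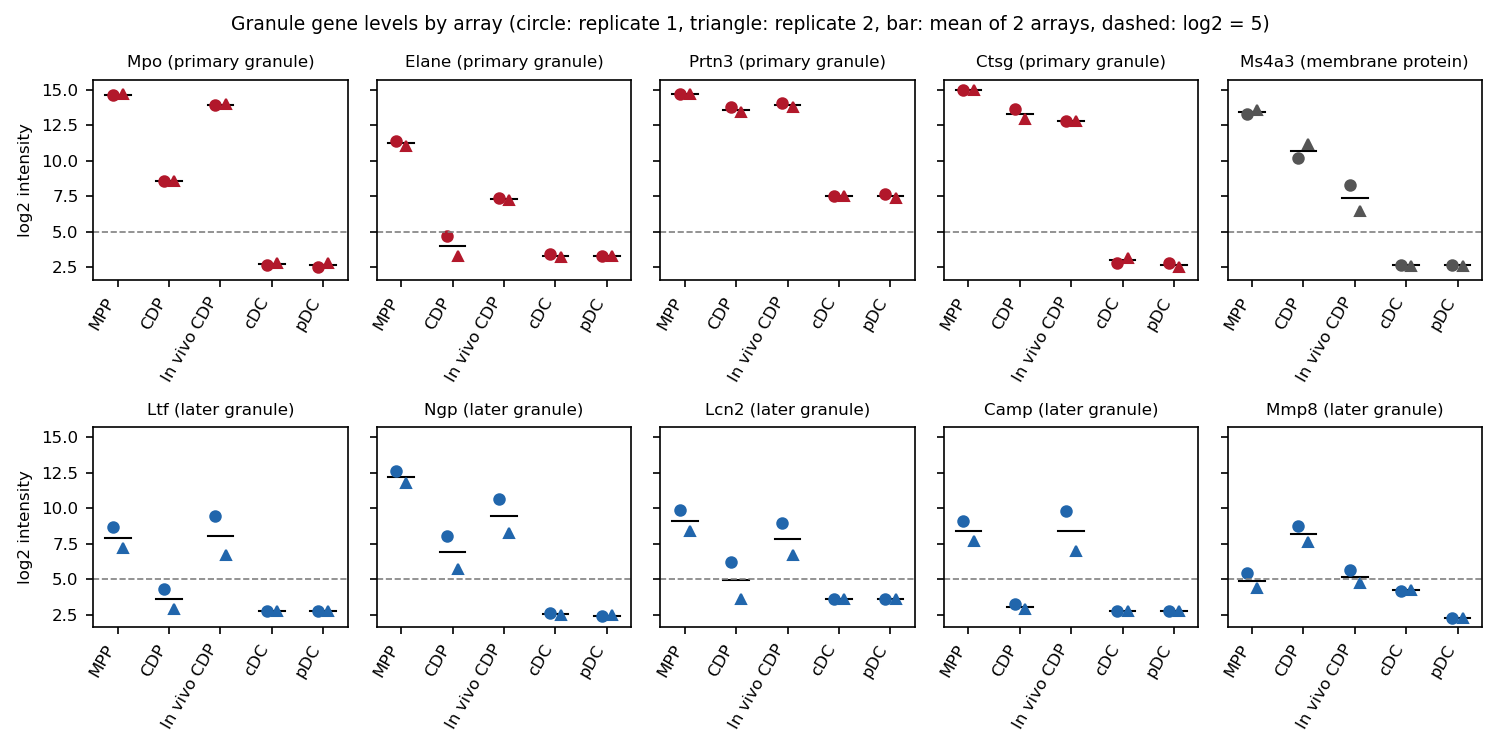
Log2 intensity of each gene (vertical axis) in MPP, CDP, In vivo CDP, cDC and pDC (horizontal axis), with circles for replicate 1, triangles for replicate 2, bars for the mean of 2 arrays and a dashed line at 5. Mpo falls from 14.68 in MPP to 8.60 in CDP while Ctsg stays at 13.28, and Mmp8 is highest in CDP at 8.18.

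CDP were compared with MPP to ask what separates the dendritic cell progenitor from its multipotent precursor. Of the 10 genes, 9 fell and 1, Mmp8, rose, and the arrays of CDP and MPP overlapped for none of the 10. Of 17501 probe sets tested, 2.11% were lower and 2.81% higher, and for 45.7% the arrays of both groups did not overlap. Differences were tested with limma on the 8 one-cycle arrays, over probe sets above 5 on at least 2 of them, and a call is a Benjamini-Hochberg adjusted p below 0.05, two-sided. If a gene was under 5 on both arrays of the group with less of it, the fold was taken against 5 and is given as at least that size, while its p tests the full difference. Elane, Ltf, Lcn2 and Camp passed the filter only through MPP, and Mmp8 only through CDP, the group where each was high, so these 5 had to differ and their calls add no support. The other 5, Mpo, Prtn3, Ctsg, Ms4a3 and Ngp, all fell.

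The largest falls were in Elane, Mpo and 4 of the later genes (Camp, Ngp, Ltf and Lcn2), and the smallest in Prtn3 and Ctsg. Elane was at least 75.9-fold lower in CDP (log2 difference -7.23, SE 0.42, adjusted p = 0.000356) and Mpo 67.3-fold lower (-6.07, SE 0.17, adjusted p = 7.25e-05). Ctsg was 3.33-fold lower (-1.74, SE 0.28, adjusted p = 0.0194) and Prtn3 2.19-fold lower (-1.13, SE 0.20, adjusted p = 0.0284). The 2 primary proteases that share a chromosomal neighbourhood, Elane and Prtn3, thus had differences of -7.23 and -1.13, and the gap between them was not tested. Ms4a3 fell 6.63-fold (adjusted p = 0.00547).

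Of the later genes, Ngp fell 39.1-fold (-5.29, SE 0.70, adjusted p = 0.00885), Camp at least 10.7-fold (adjusted p = 0.00124), Ltf at least 7.54-fold (adjusted p = 0.00884) and Lcn2 18.3-fold (-4.20, SE 0.83, adjusted p = 0.0399), a difference of -3.51 with values under 5 raised to 5. Mmp8 rose 9.83-fold (3.30, SE 0.44, adjusted p = 0.00933). The median difference was -3.90 over the primary genes (range -7.23 to -1.13) and -4.32 over the later genes (range -5.36 to 3.30), against 0.02 over all probe sets tested. Elane, Ltf, Lcn2, Camp and Mmp8, which passed the filter only through the group where each was high, enter these medians. The medians therefore add no support either. With values under 5 raised to 5 the medians were -3.90 and -3.42, so the order of the classes turned. With no filter on low values 3 members were called, Mpo, Elane and Camp, and the others had adjusted p = 0.0738 to 0.274. With the arrays of CDP and MPP alone 4 were called. Without MPP replicate 1, Mpo and Mmp8 were called, without MPP replicate 2 only Mpo, and in both cases 7 members were tested, since Elane, Ltf and Camp were then above 5 on 1 array. Without CDP replicate 1 the call of Prtn3 was lost (adjusted p = 0.0567), and without CDP replicate 2 those of Prtn3 (0.108), Ctsg (0.0607) and Lcn2 (0.0724).

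Bulk RNA cannot tell fewer cells of a type from less RNA per cell. Of 6 neutrophil markers, 4 were measured (S100a8, S100a9, Csf3r and Cxcr2). Their summed log2 level was 14.8 to 15.5 in MPP, 8.90 to 11.3 in CDP, 11.8 to 13.7 in In vivo CDP, 6.40 to 6.73 in cDC and 6.35 to 6.36 in pDC. Cxcr2, a receptor of mature neutrophils, lay between 2.25 and 2.57 on all 10 of these arrays. Of 6 mast cell and basophil markers, 5 were lower in CDP than in MPP, where 2.11% of probe sets tested were lower. Of the 6, Cpa3, Ms4a2, Fcer1a and Gata2 passed the filter only through MPP, so any call of theirs adds no support. Summed levels of the 6 were 12.2 to 12.3 in MPP, 7.08 to 7.50 in CDP and 7.44 to 7.56 in In vivo CDP. Of 8 monocyte and macrophage markers, 7 were measured. In CDP, 1 of them was higher than in MPP and 0 lower, where 2.81% of probe sets tested were higher. Their summed levels were 13.30 to 13.33 in MPP, 13.8 to 14.1 in CDP and 14.6 to 14.8 in In vivo CDP. Against CDP, 2 of the 7 were higher in In vivo CDP and 3 lower, where 23.1% and 19.7% of probe sets tested were. The part of other cell types in the granule gene levels was not tested.

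cDC and pDC were each compared with CDP, to ask what is lost on the way to the mature subsets. The 2 comparisons share the CDP arrays and are not independent. In both, Mpo, Prtn3, Ctsg, Ms4a3, Ngp and Mmp8 fell, 6 of 10 members, where 23.7% of probe sets tested were lower in cDC and 26.4% in pDC. Mmp8 had passed the filter only through CDP, the group where it was high, so it had to fall and its calls add no support. The other 4 members, Elane, Ltf, Lcn2 and Camp, were not called, and they were already under 5 on both CDP arrays, or on 1 of them in the case of Lcn2.

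Ctsg fell at least 311-fold in each subset, with log2 differences of -10.28 in cDC (SE 0.28, adjusted p = 2.36e-05) and -10.60 in pDC (SE 0.28, adjusted p = 1.16e-05). Ms4a3 fell at least 52.6-fold and Mpo at least 12.2-fold in each. Prtn3 fell 67.8-fold in cDC (-6.08, SE 0.20, adjusted p = 2.59e-05) and 66.8-fold in pDC (-6.06, SE 0.20, adjusted p = 1.77e-05), and both groups kept values above 7. Ngp fell at least 3.71-fold in each, and the call was lost in both when values under 5 were raised to 5 (adjusted p = 0.0757 in cDC and 0.0664 in pDC), and in cDC with no filter (0.0548).

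Mmp8 fell at least 9.07-fold in each subset (adjusted p = 0.00118 in cDC and 0.000184 in pDC). For Elane the difference was -0.68 in both (adjusted p = 0.237 in cDC and 0.219 in pDC), and without CDP replicate 2 it was -1.35 and passed in both (adjusted p = 0.0155 and 0.0102). Lcn2, at -1.30 in both, also passed without that array (-2.60, adjusted p = 0.0296 in cDC and 0.0217 in pDC). The median difference over the primary genes was -5.97 in cDC and -6.00 in pDC, and over the later genes -1.30 in each, against -0.10 and -0.04 over all probe sets tested. Ltf, Camp, Lcn2 and the primary gene Elane had little room to fall from their CDP levels, so this gap cannot be read as a difference between the classes. The later genes Ngp and Mmp8 had differences of -4.33 and -3.97 in cDC and of -4.47 and -5.92 in pDC. With values under 5 raised to 5 the later median was -0.62 in each, against -4.84 and -4.83 for the primary genes. Without CDP replicate 2 the gap between the medians was -3.46 in cDC and -3.49 in pDC, and without CDP replicate 1 it was -5.73 and -5.77.

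Between cDC and pDC, 1 of 10 members was called, Mmp8, which was higher in cDC (1.95, SE 0.44, adjusted p = 0.0231). Of the probe sets tested, 9.79% were higher in cDC and 20.8% were called in either direction, so this count does not stand out. For Mmp8 both groups were under 5, so no fold is given. The difference stayed at 1.94 to 1.96 without any 1 of the 4 arrays, while the call was lost (adjusted p = 0.0932 to 0.108), and it was also lost with no filter (0.156). Throughout, when 1 array of a group is left out, the lone array is assumed to vary like the other groups. Mpo, Prtn3, Ctsg and Ms4a3 overlapped between the subsets, with differences of -0.02 to 0.32.

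In vivo CDP were set against amplified CDP to ask how far the cultured cells resemble their counterpart from the bone marrow. Mpo, Elane, Ltf, Ngp, Lcn2 and Camp were higher in In vivo CDP and Ms4a3 and Mmp8 lower, 8 of 10 members, or 5 with no filter on low values, and the arrays overlapped for none of the 10. Of 18027 probe sets tested in the fit of 10 arrays, 23.1% were higher and 19.7% lower, and for 73.9% the arrays of both groups did not overlap. Origin, extraction kit, labelling kit and RNA amount differ together between these groups, and their parts cannot be told apart.

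Mpo was 40.9-fold higher in In vivo CDP (5.35, SE 0.17, adjusted p = 2.70e-06) and Elane at least 5.04-fold (3.32, SE 0.39, adjusted p = 0.000562). Prtn3 differed by 0.35 (SE 0.20, adjusted p = 0.200) and Ctsg by -0.45 (SE 0.26, adjusted p = 0.205). Of the 4 primary genes, 2 were thus called higher and 2 were not called, and the differences between the genes were not tested. Prtn3 and Ctsg already averaged 13.60 and 13.28 in CDP, against 14.73 and 15.02 in MPP, their highest group. They had less room to rise than Mpo, at 8.60 in CDP. Without CDP replicate 2 the Ctsg difference was -0.80. Ms4a3 was 10.03-fold lower (-3.33, SE 0.55, adjusted p = 0.00248).

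Among the later genes, Camp was at least 10.3-fold higher (adjusted p = 0.00172), Ltf at least 8.33-fold (adjusted p = 0.00482), Lcn2 7.44-fold (2.90, SE 0.95, adjusted p = 0.0407) and Ngp 5.96-fold (2.57, SE 0.89, adjusted p = 0.0473). Mmp8 was 7.97-fold lower (-2.99, SE 0.48, adjusted p = 0.00207). The calls of Ngp and Lcn2 were lost without In vivo CDP replicate 1 (adjusted p = 0.276 and 0.239) and without CDP replicate 2 (0.261 and 0.226). Both were also lost with values under 5 raised to 5 (0.0546 and 0.0544, the Lcn2 difference then being 2.21), with these 2 groups alone (0.100 and 0.0789) and with no filter (0.236 and 0.214), and that of Ngp with quantile normalization (0.0541). Ltf missed the threshold with no filter (0.0503). The median difference was 1.84 over the primary and 2.90 over the later genes, against 0.03 over all probe sets tested.

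Against MPP, from which they differ by the same kits and RNA amount, In vivo CDP were lower in 6 of 10 members, where 19.4% of probe sets tested were lower. All 4 primary genes were among them. Elane was 15.04-fold lower (-3.91, SE 0.39, adjusted p = 0.000227) and Ctsg 4.54-fold (-2.18, SE 0.26, adjusted p = 0.000534), while Mpo was 1.64-fold lower (-0.72, SE 0.17, adjusted p = 0.00959) and Prtn3 1.72-fold (-0.78, SE 0.20, adjusted p = 0.0164). Ms4a3 was 66.5-fold lower (-6.06, SE 0.55, adjusted p = 0.000161).

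Of the later genes Ngp alone was called, at 6.55-fold lower (adjusted p = 0.0383). Ltf, Camp, Lcn2 and Mmp8 overlapped between In vivo CDP and MPP, with differences of 0.14, -0.05, -1.30 and 0.30. The median was -1.48 over the primary and -0.05 over the later genes, against 0.05 over all probe sets tested, and the gap of -1.43 shrank to -0.10 without In vivo CDP replicate 1. Mpo missed the threshold without In vivo CDP replicate 1 (adjusted p = 0.0503). Prtn3 missed it without In vivo CDP replicate 2 (0.0994) or either MPP array (0.0615 and 0.0675), and so did Ngp (0.235, 0.164 and 0.0704). Prtn3 also missed it in a fit of all 20 arrays (0.564), and Ngp with no filter (0.201).

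**Figure D2:**
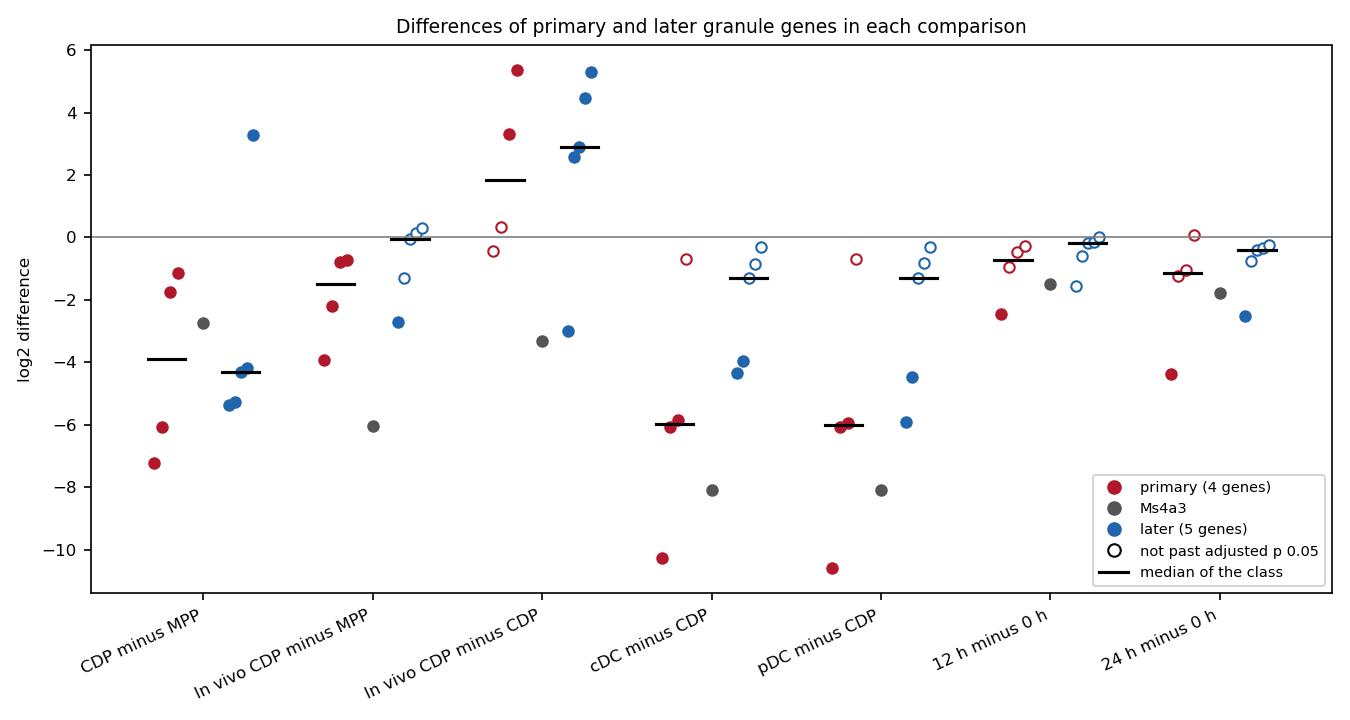
Log2 difference of each gene (vertical axis) in 7 comparisons (horizontal axis), with red for the 4 primary genes, grey for Ms4a3 and blue for the 5 later genes, filled where adjusted p is below 0.05, and black bars for the median of a class. The primary median is -5.97 and the later one -1.30 in cDC minus CDP, where Elane, Ltf and Camp were already under 5 on both CDP arrays. Mmp8 is the one blue point above 0 in CDP minus MPP, at 3.30.

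In MPP and In vivo CDP, the 2 arrays of a group differed more in each later gene than in any primary gene. In MPP, replicate 1 exceeded replicate 2 by 0.84 to 1.47 for all 5 later genes, against -0.04 to 0.33 for the 4 primary genes. In In vivo CDP the later genes differed by 0.97 to 2.79 in the same direction and the primary genes by -0.06 to 0.26. Over all 18027 probe sets, 5% to 95% of differences lay between -0.95 and 0.71 in MPP and between -0.67 and 0.60 in In vivo CDP, so all 5 later genes were above that range in both groups and no primary gene was. Ms4a3 differed by -0.23 in MPP and by 1.84 in In vivo CDP.

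In CDP, replicate 1 was higher by 2.60 for Lcn2, 2.34 for Ngp, 1.37 for Ltf, 1.06 for Mmp8 and 0.38 for Camp. The range over all probe sets was -0.82 to 1.06, and Elane, at 1.35, also lay above it, while Mpo differed by 0.00, Prtn3 by 0.35 and Ctsg by 0.71. The neutrophil genes S100a8 and S100a9, which form calprotectin, were higher in replicate 1 too, by 0.47 and 1.03 in MPP, 2.62 and 3.11 in CDP, and 2.04 and 1.84 in In vivo CDP. Chil3, a chitinase-like protein of myeloid cells, was higher by 1.87, 5.60 and 2.50. Of 5 other neutrophil genes, which included Csf3r and Hp as well, replicate 1 was higher for 4 in MPP, 5 in CDP and 4 in In vivo CDP, and 2, 3 and 4 of them lay above the range over all probe sets. Hp was lower in replicate 1 of MPP (-0.34) and Csf3r in replicate 1 of In vivo CDP (-0.37). These 5 genes were picked from the longer lists of markers and granule genes, and the other listed genes were not compared in this way. In cDC the later genes differed by -0.02 to 0.14 between arrays and the primary genes by -0.36 to 0.16, and in pDC by -0.04 to 0.00 and by -0.25 to 0.33. These differences come from 1 pair of arrays a group and carry no test, and the part of other cells in them was not tested.

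**Figure D3:**
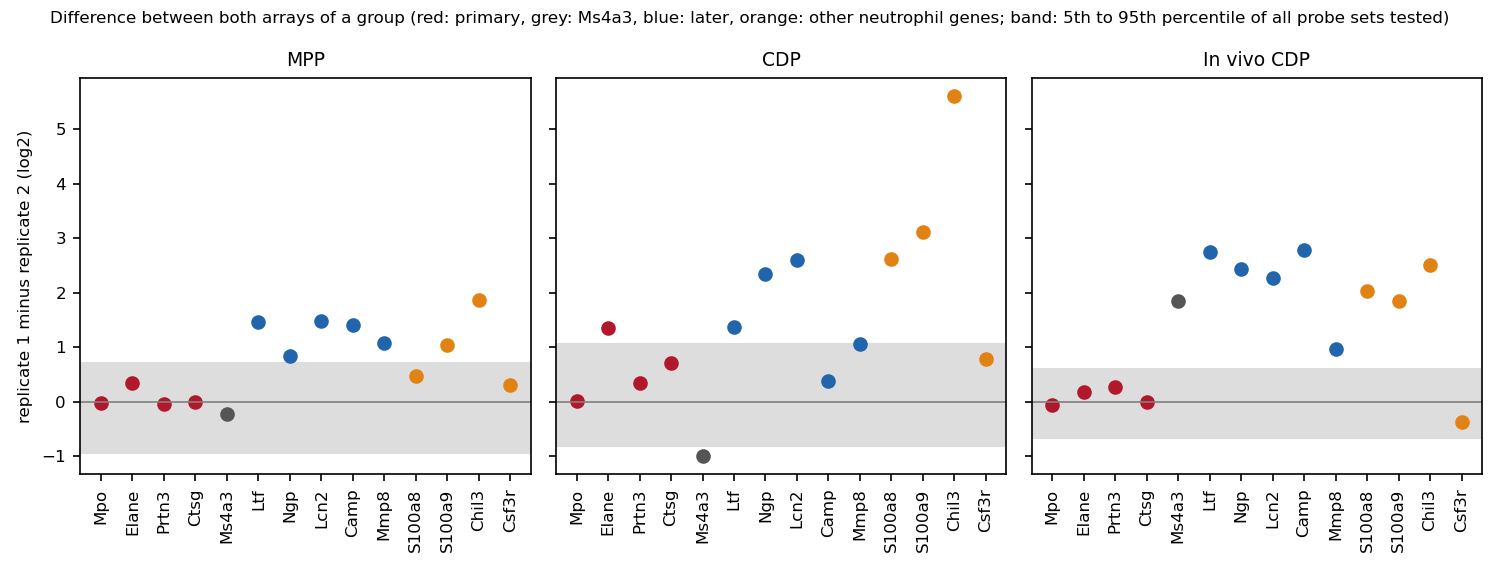
Replicate 1 minus replicate 2 in log2 units (vertical axis) for the granule genes and 4 other neutrophil genes (horizontal axis) in MPP, CDP and In vivo CDP, with red for primary, grey for Ms4a3, blue for later and orange for the other genes, and a grey band for the 5th to 95th percentile of all probe sets tested. In In vivo CDP the 5 blue points lie at 0.97 to 2.79 and the 4 red points at -0.06 to 0.26. Hp, at -0.34 in MPP, is not drawn.

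Genes whose levels ran most like those of Mpo, Ctsg and Ngp over the 10 arrays were listed as a description. The points are 5 groups of 2 arrays, so a coefficient mostly reflects group levels. Wdr5 (Pearson r = 0.995), Nfe2, Riox1, Bola2 and Ctdspl were most like Mpo. Prtn3 (r = 0.997), Mnd1, Rangrf, Cdk6 and Tspan5 were most like Ctsg. S100a9 (r = 0.995), S100a8 (0.995), Dgat1, Fkbp9 and Chil3 were most like Ngp.

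Regulators of granule genes were set beside them from a fixed list of 9, of which 8 were measured and 7 tested on these arrays. In CDP, 3 were lower than in MPP, where 2.11% of probe sets tested were lower. Gfi1, a repressor required for granulocyte development, fell 19.2-fold (-4.26, SE 0.24, adjusted p = 0.000347), Cebpa, which starts the granulocyte programme, 8.68-fold (adjusted p = 0.0164), and Myb, an activator of Mpo and Elane, 2.29-fold (adjusted p = 0.0164). In In vivo CDP, 6 of 7 were higher than in CDP and 0 lower, where 23.1% of probe sets tested were higher and 19.7% lower. The largest were Cebpa at 6.36-fold (2.67, SE 0.45, adjusted p = 0.00258), Cebpb at 4.77-fold and Cebpd at 3.25-fold. Gfi1 was not among the 6: it read 5.85 and 5.63 on In vivo CDP, 5.94 and 6.38 on CDP, and 10.45 and 10.40 on MPP. Gfi1, Myb and Cebpb fell in cDC, and Gfi1, Cebpb and Spi1 fell in pDC, where Runx1 rose (1.66-fold, adjusted p = 0.0373).

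Of 5 genes that process or hold granule proteases, Ctsc, the peptidase that activates granule serine proteases, rose 2.72-fold in CDP over MPP (1.44, SE 0.21, adjusted p = 0.0119), and 0 fell. In In vivo CDP, Ctsc was 4.97-fold lower than in CDP and Serpinb1a, an inhibitor of neutrophil elastase, 2.65-fold lower. Serpinb1a, Slpi and Cst7 fell in both dendritic cell subsets, and Ctsc in pDC as well. Of 18 other granule and antimicrobial genes, 16 were measured and 11 tested. In CDP against MPP, 4 of them were lower and 0 higher, where 2.11% of probe sets tested were lower. The 4 were S100a8 (44.2-fold), S100a9 (40.4-fold), Fcnb (at least 4.84-fold) and Pglyrp1 (at least 3.37-fold), the last 2 of which passed the filter only through MPP. In In vivo CDP against CDP, S100a8 and S100a9 were 8.79-fold and 6.98-fold higher, and Cybb and Hp 9.39-fold and 4.82-fold lower. In cDC, S100a8, S100a9 and Hp were lower than in CDP and Anxa1, Cyba and Cybb higher. In pDC, S100a8, S100a9, Hp and Anxa1 were lower and Cyba and Cybb higher. Csf3r, the receptor of granulocyte colony-stimulating factor, was 3.37-fold lower in CDP than in MPP, the 1 member called of 3 tested in a list of 6 neutrophil receptors.

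The TGF-β1 series asked how the amplified CDP change with hours of TGF-β1. Ctsg and Ms4a3 fell over the series, Mmp8 fell by 24 h, and the other 6 members tested were not called at any time. Lcn2 was not tested, since it was above 5 on 1 of the 10 arrays. All times were compared with the same 2 arrays at 0 h and are not independent, and with no untreated culture at 4 to 24 h the effects of TGF-β1 and of hours in culture cannot be told apart.

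Ctsg was at 10.86 and 11.67 at 0 h, 10.80 and 11.08 at 4 h, 9.54 and 9.95 at 8 h, 8.77 and 8.84 at 12 h, and 7.06 and 6.72 at 24 h. The arrays at 8, 12 and 24 h lay below both 0 h arrays, with 24 h lowest. Ms4a3 was at 10.82 and 11.14 at 0 h, 10.17 and 10.66 at 4 h, 9.85 and 9.87 at 8 h, 9.28 and 9.70 at 12 h, and 9.10 and 9.30 at 24 h. Each later time lay below 0 h, and 12 and 24 h overlapped. Mmp8 was at 7.26 and 6.08 at 0 h, 7.45 and 6.43 at 4 h, 6.60 and 5.80 at 8 h, 5.45 and 4.79 at 12 h, and 4.74 and 3.56 at 24 h. Replicate 1 was the higher array at all 5 times, and 12 and 24 h lay below both 0 h arrays.

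At 4 and 8 h, 0 of 9 members tested were called by limma, where 0.278% and 0.677% of 26606 probe sets were called in either direction, and at unadjusted p below 0.05 there were 1 at 4 h (Ms4a3) and 2 at 8 h (Ctsg and Ms4a3). At 8 h the difference was -1.52 for Ctsg (SE 0.29, adjusted p = 0.0767) and -1.11 for Ms4a3 (SE 0.23, adjusted p = 0.104). With the replicate number as a block both passed at 8 h (adjusted p = 0.0312 and 0.0199). At 12 h, 2 of 9 were lower, where 0.872% of probe sets were lower. Ctsg was 5.50-fold lower (-2.46, SE 0.29, adjusted p = 0.00608) and Ms4a3 2.80-fold (-1.49, SE 0.23, adjusted p = 0.0179), and Mmp8 at -1.55 (adjusted p = 0.245) passed with the block (0.00383). Without 12 h replicate 1 or 2 the Ctsg difference was -2.42 or -2.50 and missed the threshold (0.0573 and 0.0525). The Ms4a3 difference was -1.69 to -1.28 without any 1 of the 12 h and 0 h arrays and missed it each time (0.0601 to 0.176), as it did in a fit of all 20 arrays (0.102).

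At 24 h, 3 of 9 were lower and 0 higher, where 6.39% of probe sets were lower. Ctsg was 20.8-fold lower (-4.38, SE 0.29, adjusted p = 0.000172), Ms4a3 3.42-fold (-1.78, SE 0.23, adjusted p = 0.00277) and Mmp8 at least 3.18-fold (-2.52, SE 0.58, adjusted p = 0.0254). The Mmp8 call was lost without 24 h replicate 2 (0.108), 0 h replicate 1 (0.174) or 0 h replicate 2 (0.0519), and with values under 5 raised to 5 (-1.67, 0.0678). Mpo was at 6.39 and 6.75 at 0 h and 5.69 and 5.36 at 24 h, a difference of -1.04 (SE 0.31, adjusted p = 0.0667) that passed with the block (0.0299), without the 3 arrays of low 5′ signal (0.0289), with these 2 groups alone (0.0424) and in a fit of all 20 arrays (0.0128). The F-test over all 5 times called 2 of 9 members, Ctsg (adjusted p = 0.00114) and Ms4a3 (0.0168), where 5.74% of probe sets were called, and Mmp8 missed it (0.0815). Leaving out 0 h replicate 1 or 2, 8 h replicate 1, or 24 h replicate 1 or 2 left 1 member called by it.

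Besides Ctsg, no primary gene was called at 24 h in the fit of 10 arrays, and the differences between their changes were not tested. Prtn3 was at 13.18 and 13.35 at 0 h, 10.15 and 13.18 at 4 h, 12.79 and 13.05 at 8 h, 11.75 and 12.89 at 12 h, and 11.12 and 12.92 at 24 h. The low values at 4, 12 and 24 h were those of replicate 1, the 3 arrays with low 5′ control signal, and the 24 h difference of -1.24 had an SE of 0.95 (adjusted p = 0.462). Elane was at 5.39 and 5.40 at 0 h and 5.46 and 5.51 at 24 h, and it lay between 4.83 and 5.62 throughout. For Ctsg the same 3 arrays did not stand apart.

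None of the later genes other than Mmp8 was called at any time. Ltf ranged from 4.78 to 5.61, Camp from 5.27 to 5.82, Ngp from 5.96 to 6.77 and Lcn2 from 3.65 to 5.03 over the 10 arrays. Their differences at 24 h were -0.33 for Ltf, -0.39 for Camp, -0.25 for Ngp and -0.74 for Lcn2. The median difference at 24 h was -1.14 over the primary and -0.39 over the later genes, against -0.01 over all probe sets tested. The gap of -0.75 was -0.21 with the Gapdh 3′ minus 5′ covariate. Between arrays of a group, the primary minus later gap in class means had an SD of 0.41, which is not an SD of the gap in medians. The class medians at 4, 8 and 12 h were -0.32, -0.35 and -0.71 for the primary genes and 0.10, -0.09 and -0.16 for the later genes.

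**Figure D4:**
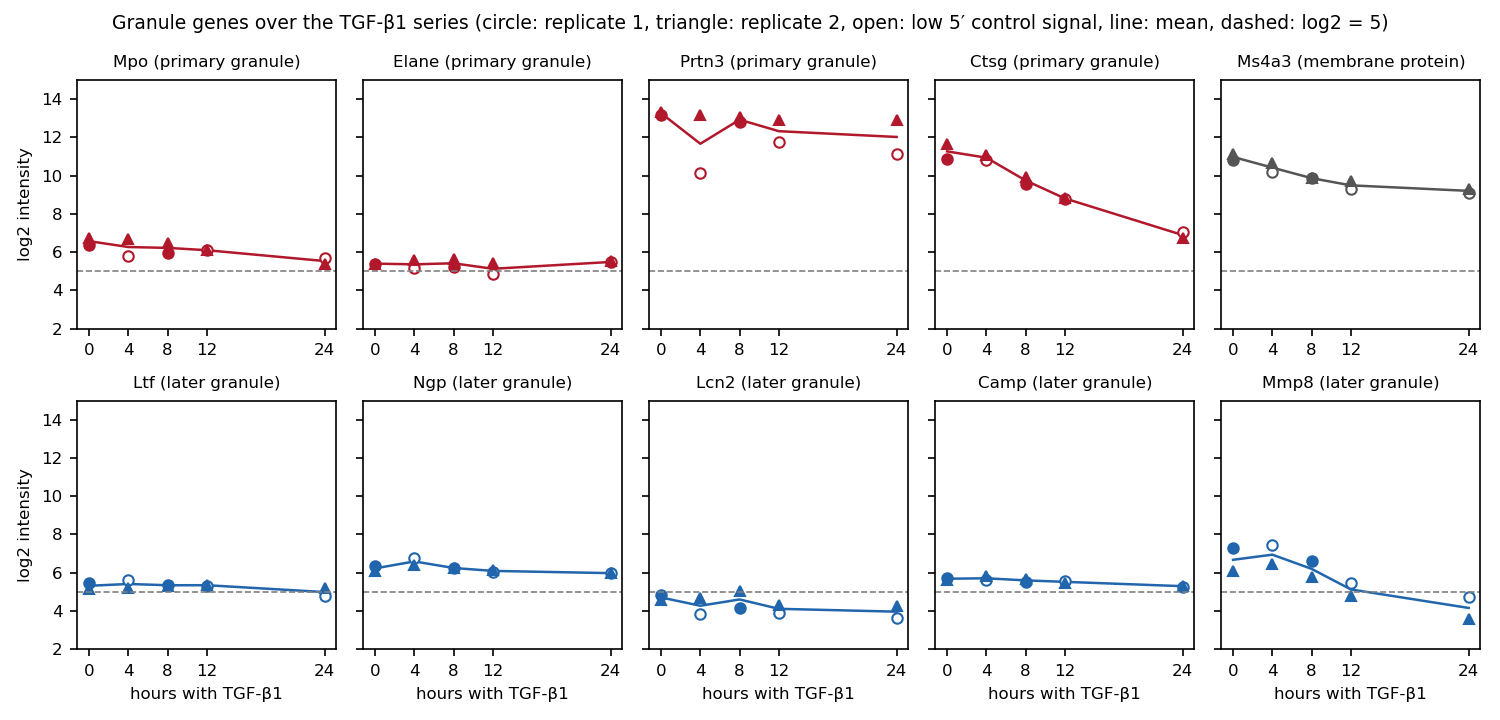
Log2 intensity of each gene (vertical axis) against hours with TGF-β1 (horizontal axis), with circles for replicate 1, triangles for replicate 2, open symbols for the 3 arrays with low 5′ control signal, lines through the means and a dashed line at 5. Ctsg falls from a mean of 11.27 at 0 h to 6.89 at 24 h, and the open symbols of Prtn3 lie below its filled ones at 4, 12 and 24 h.

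Among the companion genes at 24 h, 3 of 8 regulators were lower and 0 higher, where 6.39% of probe sets tested were lower. These were Cebpb, 11.1-fold (-3.47, SE 0.35, adjusted p = 0.000905), Myb, 2.79-fold (adjusted p = 0.0115), and Gfi1, 2.15-fold (adjusted p = 0.0400). Cebpb was already 5.03-fold lower at 12 h (adjusted p = 0.0145). Of the 5 protease handling genes, Slpi, a secreted inhibitor of elastase and cathepsin G, was 9.97-fold lower (adjusted p = 0.0171) and Serpinb1a 3.28-fold (adjusted p = 0.00352). Of 11 other granule and antimicrobial genes tested, Hp, haptoglobin, was 24.9-fold lower (-4.64, SE 0.49, adjusted p = 0.00109), and Lyz2 and Lyz1, paralogous lysozymes whose probe sets may share signal, were lower by log2 differences of -3.32 and -2.62. Hp and Lyz2 were also lower at 12 h, by 7.42-fold and 4.36-fold. Csf3r was 2.27-fold lower at 24 h (adjusted p = 0.0145), and the summed level of the 4 neutrophil markers was 9.49 to 9.91 at 0 h and 8.75 to 9.24 at 24 h. Of 7 monocyte and macrophage markers, Fcgr1 was lower at 24 h (-1.68, adjusted p = 0.0187) and Csf1r higher (0.91, adjusted p = 0.0328), and the summed level was 13.6 to 13.8 at 0 h and 13.8 to 14.1 at 24 h, with 5 of the 7 differences below 0. All 4 cDC markers were higher at 24 h, where 7.77% of probe sets tested were higher. Their summed level was 10.3 to 10.7 at 0 h and 12.5 to 13.5 at 24 h. Of 5 eosinophil markers 1, Siglecf, was above 5 and tested, and it rose by 3.78 (adjusted p = 0.00221), while Epx and Prg2 stayed under 5. The part of these cell types in the granule gene levels was not tested.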

How the data were processed

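The authors deposited 1 log2 intensity per probe set and array, made with GCRMA per the submitters' processing notes, which name no version. The 10 TGF-β1 arrays and the other 10 had different lowest values and medians and were fitted apart. Of 45101 probe sets, 64 controls were left out, and the platform annotation names 1 gene for 34958, several for 932 and none for 9211. Each member had 1 probe set.

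Tests were run in R 4.3.3 with limma 3.58.1, by lmFit and eBayes, on all probe sets above 5 on at least 2 arrays of a fit, with Benjamini-Hochberg adjustment over them and a threshold of 0.05, two-sided. The fits held the 8 one-cycle arrays, these with In vivo CDP (10 arrays), and the 10 TGF-β1 arrays. The scripts were tested on simulated data. Each group has n = 2 arrays, and that number limits the precision. The members and gene lists were chosen with earlier results of these data known. All members are named, and from each list up to 3 called genes per comparison and direction. For a listed gene with several probe sets, the one highest on average was used. Same-numbered arrays of the TGF-β1 series deviated together (10 pairs of groups, r = 0.15 to 0.83). The main fits held no term for the replicate number, and the replicate block was an alternative. The r values were 0.68 to 0.83 among 4, 12 and 24 h, whose replicate 1 arrays had low 5′ signal, and 0.60 between 0 and 8 h. Across these sets of times they were 0.15 to 0.29, so pairing and low 5′ signal cannot be told apart. In the other arrays the rule that each pair of groups exceeds 0.1 was not met (r = -0.02 to 0.58), although MPP and CDP (0.58) and cDC and pDC (0.48) deviated together.

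Alternatives were other normalizations, filters and fits, a replicate block, a Gapdh 3′ minus 5′ covariate, the removal of each array and of the 3 arrays with low 5′ signal.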

Additional observations from a re-analysis of the deposited data

How the results depend on the processing

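With 2 arrays a group, calls near the threshold depend on single arrays. Of 1381 recomputed differences of single members, 1253 kept direction and side of the threshold, 69 lost the call and 19 gained it. Another 40, of differences not called under either setting, turned sign. Among them were Ltf (-1.23 to 1.51) and Camp (-1.44 to 1.35) between In vivo CDP and MPP with 1 array left out. Recomputations in which a member was no longer tested are not among the 1381, so the 69 leaves out calls lost in that way. Elane, Ltf and Camp between CDP and MPP were not tested when 1 MPP array was left out. Counts of members called moved by over 1.5 times in 23 of 148 recomputations. Between CDP and MPP 10 were called, but 3 with no filter, 4 with only these 2 groups fitted, and 1 to 9 with 1 array left out. Between cDC and pDC the 1 call became 0 with no filter, with values under 5 raised to 5, with only these 2 groups, and with any 1 array left out (0 to 0), and Mmp8 is the member concerned. Between In vivo CDP and CDP 8 became 5 with no filter, and 6 to 8 with 1 array left out. At 8 h 0 became 1 with 1 probe set per gene, with 20 arrays, without the 3 arrays of low 5′ signal and with only these 2 groups, and 2 with the Gapdh covariate. At 12 h 2 became 1 with 20 arrays and 0 to 1 with 1 array left out. The F-test count of 2 was 1 to 3 with 1 array left out.

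The replicate block on the TGF-β1 arrays gave 2 calls at 8 h, 3 at 12 h and 4 at 24 h, and 3 in the F-test, and changed no other call of a member. On the other arrays, where the rule for pairing was not met, it left the counts at 10 for CDP against MPP, 6 for cDC and for pDC against CDP, and 8 for In vivo CDP against CDP.

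The primary minus later gap in medians moved as follows. For CDP against MPP it was 0.42, and -0.48 with values raised to 5, 1.59 with Ms4a3 among the primary genes, -0.87 with means, and -0.32 to 1.41 with 1 array left out. For cDC against CDP it was -4.67, and -3.33 with Ms4a3 among the later genes, -3.57 with means, and -5.73 to -3.46 with 1 array left out. For pDC against CDP it was -4.70, and -4.22 with values raised, -3.11 with Ms4a3 among the later genes, -3.25 with means, and -5.77 to -3.49 with 1 array left out. For cDC against pDC it was 0.04 and -0.32 with means. For In vivo CDP against CDP it was -1.06 and -2.54 with Ms4a3 among the primary genes. For In vivo CDP against MPP it was -1.43 and -2.26 to -0.10 with 1 array left out. At 24 h it was -0.75 and -0.21 with the Gapdh covariate. The causes of these shifts were not tested. Averaging the probe sets of a gene leaves the values of the members as they are, since each member has 1. The adjusted p still depends on how many probe sets are tested, as for Ctsg at 8 h with 1 probe set per gene.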
